A study of Mus musculus with 16 samples.

Results

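A set of genes that mark the stem cell zone of the mouse intestinal crypt or respond to Wnt signalling there were followed through all 4 groups of the study. The members, 10 of the 24420 genes listed, were the rows with the symbols Lgr5, Olfm4, Ascl2, Smoc2, Axin2, Sox9, Myc, Cd44, Ephb2 and Ephb3. All 10 were found in each of the 2 deposited tables. The rows were matched by symbol, from a list of names drawn up with earlier results of these data known. The first table held primary enterocytes, the absorptive lining cells of the small intestine, from 4 WT and 5 Mfge8 null samples. The second held small intestinal RNA from 4 WT and 3 Cd36 null samples. All mice were of strain C57B6 per the labels, which give no age, sex or diet and do not describe how either null allele was made. The question, as far as the title gives it, is how small intestinal gene expression differs when either gene is missing. MFGE8 is released from cells and bridges them through integrins, and CD36 takes up long-chain fatty acids at the cell membrane. In the 3' tag libraries used, each transcript is read about once, next to its poly(A) tail, so levels can be set side by side between genes with little effect of length.

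The intestinal lining is renewed from stem cells at the base of the crypts. Wnt ligands from Paneth cells and from the surrounding stroma bind Frizzled and LRP receptors, beta-catenin is then spared from its destruction complex, and TCF factors switch on target genes. R-spondins strengthen the signal through LGR receptors. Differentiated enterocytes on the villus have left this zone, and crypt genes are known to be low in them.

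The promoters of a pair of members at opposite ends of the enterocyte levels described below are shown first. Axin2 had the most reads of the members in enterocytes and Olfm4 had none. Each window runs from 250 bases before to 50 bases after the RefSeq start on mm10 (RefSeq, GRCm38.p6), 5′ to 3′ on the gene's strand, with every CG dinucleotide in capitals. The Axin2 window is chr11:108920099-108920398 and the Olfm4 window is chr14:80000052-80000351, both on the plus strand. The Axin2 window follows the start used in the promoter table, which lies inside the gene's full span given further on.
Axin2: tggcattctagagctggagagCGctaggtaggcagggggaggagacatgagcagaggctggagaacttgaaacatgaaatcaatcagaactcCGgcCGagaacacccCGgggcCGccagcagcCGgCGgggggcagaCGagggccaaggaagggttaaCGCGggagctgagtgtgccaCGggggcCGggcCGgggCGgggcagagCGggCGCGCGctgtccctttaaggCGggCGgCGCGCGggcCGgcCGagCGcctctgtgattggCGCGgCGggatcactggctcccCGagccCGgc
Olfm4: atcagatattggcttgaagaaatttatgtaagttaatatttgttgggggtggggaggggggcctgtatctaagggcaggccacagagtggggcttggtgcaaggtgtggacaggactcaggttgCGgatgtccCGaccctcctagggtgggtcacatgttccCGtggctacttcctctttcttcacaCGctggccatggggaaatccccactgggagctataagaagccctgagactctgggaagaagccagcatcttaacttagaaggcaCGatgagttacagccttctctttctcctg
The Axin2 window held 31 CG dinucleotides, more than 89.4% of the 32851 promoters in the RefSeq table, and 70% of its bases were G or C. The Olfm4 window held 5, more than 38.0% of promoters, and its G and C content was 52.3%, near the median of 52.7% over all promoters. Promoters were found for 6 of the 10 members. Ephb2 had 24 CG dinucleotides, Ascl2 and Ephb3 had 23 each and Cd44 had 6, against a median of 7 over all promoters. The letters CTTTGA and CTTTGT, forms of the motif that TCF factors bind, were searched on both strands. They occurred in none of the 6 windows (0 of 6), and in 16% and 18.7% of all promoters, respectively. That says only that these letters are not in these windows.

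On mm10 (RefSeq, GRCm38.p6), Axin2 lies at chr11:108917828-108950783 and Sox9 at chr11:112782210-112787757. Both are on the plus strand, with Olfm4 at chr14:80000302-80023141, Smoc2 at chr17:14279490-14404790, Ephb3 at chr16:21204620-21223309 and Myc at chr15:61985341-61990361. On the minus strand lie Lgr5 at chr10:115450314-115587780, Ascl2 at chr7:142966822-142969264, Ephb2 at chr4:136647536-136836326 and Cd44 at chr2:102811141-102901669. In the GENCODE annotation another gene overlaps 5 of the 10, but none lies over a member's annotated 3' end, where the tags are read (0 of 10).

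Libraries held 1618369 to 2459812 reads in the enterocyte table and 850297 to 1000694 in the intestine table. The deposited values were reads scaled by 1 size factor per library within each table, called normalised reads below. Enterocyte libraries of a genotype differed well beyond sampling noise, with a chi-square statistic per degree of freedom of 6.26 to 20.2 over 16 pairs. Intestine libraries of a genotype differed by about sampling noise: the same statistic was 0.987 to 1.12 over 9 pairs, of which 5 had an unadjusted p under 0.05, and 2.14 to 2.28 over 12 pairs between genotypes. They were therefore counted as 1 sample per genotype, and the intestine comparison has no test. The labels do not say which libraries came from separate mice in either experiment, so enterocyte p-values measure the spread between these samples, which may be technical. The targeted genes matched the labels: Mfge8 averaged 14.8 ± 6.70 normalised reads in WT (SD, n = 4) and 3.45 ± 2.43 in null enterocytes (n = 5; limma, adjusted p = 0.0362), and Cd36 averaged 114 in WT and 12.6 in Cd36 null intestine. Cd36 was also lower in Mfge8 null enterocytes, at 65.8 against 135 in WT without overlap (limma log2 change −1.10, adjusted p = 0.0234). Summed absorptive markers took 28542 to 42414 RPM (reads scaled to 1000000 per library) over all libraries. Goblet cell markers summed to 25508 to 46831 RPM in WT and 16687 to 51259 in Mfge8 null enterocytes, as high as the absorptive sum. They summed to 8590 to 8897 in WT intestine. The enterocyte sum was mainly Zg16, at a mean of 49944 normalised reads in WT enterocytes, against 4856 for Tff3 and 3274 for Muc2. In WT intestine Zg16 averaged 2045 and Muc2 2629. The goblet difference between the sample types thus rests largely on that gene. It bears on every comparison of the sample types, and its part in them was not tested. The samples labelled small intestine were low in most smooth muscle markers. Acta2, Myh11 and Cnn1 were at 0 in all WT intestine libraries, and 6 smooth muscle markers other than Mylk summed to 2.31 to 10.99 RPM over both genotypes. Mylk went the other way, at means of 636 normalised reads in WT and 706 in Cd36 null intestine, and 1302 in WT enterocytes. With Mylk the list summed to 676 to 826 RPM in intestine.

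Between the WT groups, 9 of the 10 crypt genes were more abundant in every intestine sample than in any isolated enterocyte sample. Among those of the 9 with reads in both, ratios ran from 2.26 for Axin2 to 69.3 for Myc. Ephb3 had a ratio of 1.88, with overlapping libraries. The tables were prepared and normalised separately, so RPM values were set side by side with no test. In these bulk samples fewer cells of a type and less RNA per cell cannot be told apart. Without overlap between libraries, 9 of the 10 members were higher in WT intestine, against a background of 40.7% of 11677 genes with at least 10 reads over the 8 WT libraries.

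The stem cell markers had almost no reads in WT enterocytes. Olfm4, a secreted glycoprotein of crypt base stem cells, had 0 reads in all 4 WT enterocyte libraries, which allows up to 0.395 RPM (3 reads over the group), and 16.6 RPM in WT intestine, at least 41.9-fold higher when taken against that floor. The lower 95% counting limit of its ratio, which also covers the error of the 58 intestine reads, was 32.99. Ascl2, a basic helix-loop-helix transcription factor of stem cells, was likewise at 0 in the 4 WT enterocyte libraries and at 6.57 RPM in WT intestine, at least 16.6-fold higher against the same floor, with a lower 95% counting limit of 12.5. Lgr5, the R-spondin receptor that defines these stem cells, had 3 reads over the WT enterocyte libraries and 14 over the WT intestine libraries. Its ratio in RPM was 10.1, with a 95% counting interval of 2.82 to 54.9. Smoc2, a secreted matrix protein of the stem cell zone, stood at 1.58 RPM in WT enterocytes and 24.0 in WT intestine, a ratio of 15.2 (8.24 to 30.5). All 4 stem cell markers together summed to 0.618 to 4.57 RPM in WT enterocytes and 42.3 to 61.4 in WT intestine, so the groups were far apart. Markers of Paneth cells, also of the crypt base, did overlap, at 477 to 1888 RPM in WT enterocytes and 1212 to 1329 in WT intestine.

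The Wnt feedback gene Axin2 was present in both sample types. It was at 29.3 RPM in WT enterocytes and 66.2 in WT intestine, a ratio of 2.26 (95% counting interval 1.88 to 2.73), and was the most abundant member in enterocytes. Sox9, a transcription factor of the crypt that is also found in Paneth and tuft cells, stood at 10.3 and 103 RPM, a ratio of 9.97 (7.78 to 12.9), and was the most abundant member in intestine. The interval of Axin2 lay wholly below that of Sox9, but both cover counting error only. WT enterocyte libraries ran from 19.2 to 44.4 RPM for Axin2 and from 4.88 to 21.1 for Sox9, a spread that the intervals leave out. They therefore do not rank the ratios. Myc, a transcription factor of proliferating cells, had 1 read over the WT enterocyte libraries and 32 over the WT intestine libraries (ratio 69.3, 11.6 to 2822). Among surface proteins, Cd44, a hyaluronan receptor, had a ratio of 6.68 (4.79 to 9.45), Ephb2 had 2.86 (1.58 to 5.22) and Ephb3 had 1.88 (0.822 to 4.23). Ephb2 and Ephb3 are receptor tyrosine kinases for ephrin-B ligands that sort cells along the crypt. Ephb3 was the member whose WT libraries overlapped between the sample types.

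The order of levels in WT enterocytes, in RPM, was Axin2 at 29.3, Sox9 at 10.3, Cd44 at 6.33, Ephb2 at 2.90, Ephb3 at 1.98, Smoc2 at 1.58, Lgr5 at 0.395, Myc at 0.132, and Ascl2 and Olfm4 at 0. Every neighbouring pair in this order overlapped in its range over the 4 libraries. In WT intestine the order was Sox9 at 103, Axin2 at 66.2, Cd44 at 42.3, Smoc2 at 24.0, Olfm4 at 16.6, Myc at 9.14, Ephb2 at 8.28, Ascl2 at 6.57, Lgr5 at 3.997 and Ephb3 at 3.71. There Sox9, Axin2, Cd44 and Smoc2 were separated from each other without overlap over the libraries, and from Smoc2 downward neighbours overlapped.

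**Figure D1:**
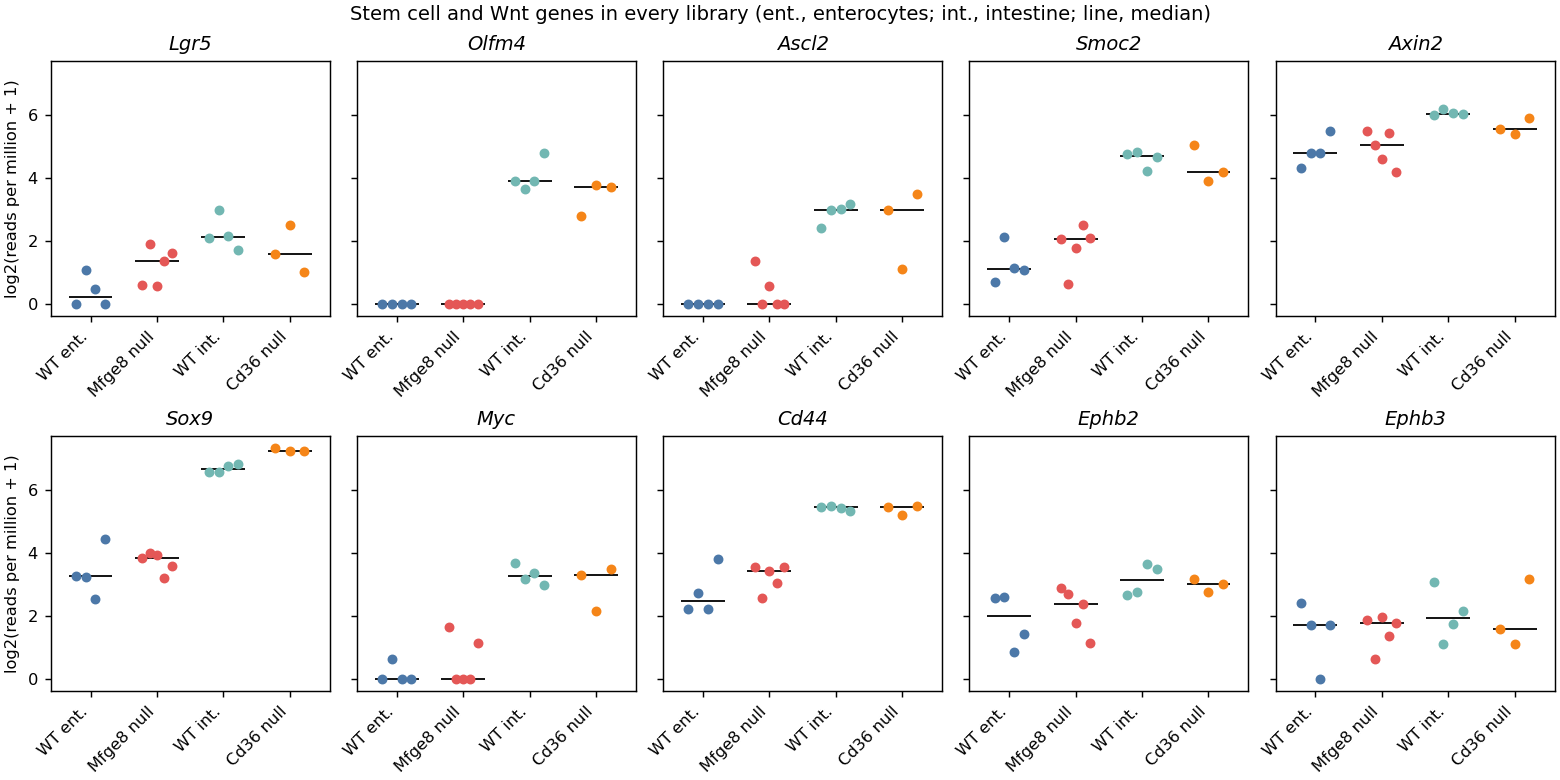
Level of each of the 10 members in each library, as log2(RPM + 1), in WT and Mfge8 null enterocytes and in WT and Cd36 null intestine; points are libraries and lines are group medians. Olfm4 is at 0 in all 9 enterocyte libraries, while Axin2 is present in all 16 libraries, and the Cd36 null points of Sox9 lie above all WT intestine points.

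No member passed the test in Mfge8 null enterocytes. Of the 10 members, 5 reached 5 normalised reads in 4 or more libraries and were tested with limma on log2(value + 1) with Benjamini-Hochberg adjustment over 9432 genes: Axin2, Sox9, Cd44, Ephb2 and Smoc2. None was called (0 of 5) against a background of 3.21% of genes (303 called), and none had an unadjusted p under 0.05 (0 of 5) against 15.9% of genes. edgeR's quasi-likelihood test and DESeq2 on the recovered reads also called 0 of them. Fitted log2 changes of the 5 were all above 0, with a median of 0.45 against 0.00 over all genes tested. Smoc2 reached 5 normalised reads only in WT 2 and in null 1, null 4 and null 5. It thus passed the filter mainly through null libraries, which bears on its sign. Libraries of the genotypes overlapped for every member.

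Among the stem cell markers, Olfm4 had 0 reads in all 9 enterocyte libraries, which allows up to 0.300 RPM over the 5 null libraries. Lgr5 stood at 0, 2.08, 0.784 and 0 normalised reads in WT 1 to 4 and at 0.979, 5.48, 0.999, 3.21 and 4.10 in null 1 to 5. It was detected in 2 of 4 WT and 5 of 5 null libraries, from 3 and 15 reads in all. The log2 difference was 1.21, with p = 0.0635 in a 2-sided exact permutation test over 126 labelings, whose smallest possible p is 0.00794. It was 1 of 9 such single-gene permutation tests, all unadjusted, and none of the 9 was under 0.05. Ascl2 was at 0 in the 4 WT libraries, at 2.94 normalised reads in null 1 and 0.999 in null 3, and at 0 in the other null libraries (exact permutation p = 0.444). Smoc2 stood at 1.17, 6.24, 2.35 and 1.99 normalised reads in WT and 5.88, 1.10, 4.99, 9.64 and 6.56 in null libraries. WT 2 and null 2 crossed the other libraries of their groups, and the log2 change was 0.73 (SE 0.57, 95% interval −0.47 to 1.93, limma adjusted p = 0.579). These levels of a few reads per library limit what could be detected.

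Axin2 codes for a scaffold protein that limits Wnt signalling and is itself switched on by it. Its levels were 36.2, 48.9, 51.7 and 77.4 normalised reads in WT 1 to 4 and 80.3, 62.5, 46.9, 86.7 and 34.4 in null 1 to 5. The lowest and highest enterocyte values both belonged to null libraries. WT averaged 53.6 ± 17.3 (SD, n = 4) and null 62.2 ± 21.98 (n = 5), a log2 change of 0.19 (SE 0.27, limma adjusted p = 0.804), with a 95% interval of −0.40 to 0.77.

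The transcription factors were low and overlapping. Sox9 stood at 16.4, 15.6, 9.41 and 36.7 normalised reads in WT and 24.5, 29.6, 29.0, 17.1 and 22.1 in null libraries. The null libraries lay between the 3 lower WT libraries and WT 4, and the log2 change was 0.45 (SE 0.33, 95% interval −0.25 to 1.15, limma adjusted p = 0.555). Myc had reads in WT 2, null 1 and null 5 only among the 9 libraries, at 1.04, 3.92 and 2.46 normalised reads (exact permutation p = 0.444).

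The surface proteins showed the same overlap. Cd44 stood at 7.01, 10.4, 7.06 and 22.8 normalised reads in WT and 19.6, 9.87, 19.98, 14.99 and 21.3 in null libraries. WT 4 was the highest of all 9, while the other WT libraries were near or below the lowest null library, and the log2 change was 0.61 (SE 0.37, 95% interval −0.16 to 1.39, limma adjusted p = 0.445). Ephb2 stood at 9.35, 9.36, 1.57 and 2.98 in WT and 11.8, 10.96, 4.99, 8.57 and 2.46 in null libraries. Each group held low and high libraries, with a log2 change of 0.45 (SE 0.54, limma adjusted p = 0.746). Ephb3 averaged 4.08 ± 3.34 in WT (SD, n = 4) and 4.02 ± 1.92 in null enterocytes (n = 5), with an exact permutation p of 0.730.

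The intervals of the 5 tested members include 0, and also include a 2-fold rise for Smoc2, Sox9, Cd44 and Ephb2, so a difference of that size is not excluded for them. Library WT 4 was the highest WT library for Axin2, Sox9 and Cd44. Enterocyte libraries also differed in markers of gut region, with 5 ileal markers summing to 503 to 5574 RPM in WT and 485 to 4290 in null libraries. The sum of 5574 was that of WT 4, against 503 to 694 in WT 1 to 3. B and plasma cell markers summed to 9.27 to 71.2 in WT and 102 to 260 in null libraries without overlap, and Jchain, the joining chain of secreted antibodies, was called (limma log2 change 2.55, SE 0.43, adjusted p = 0.00331). The sum was mainly Jchain, at means of 58.5 normalised reads in WT and 294 in null. Of the same list, Mzb1 averaged 4.996 and 17.6, Cd79b 6.98 and 8.42, and Ms4a1 5.62 and 3.91, none of them called. T cell markers summed to 634 to 2059 in WT and 1678 to 3858 in null libraries, and 17 proliferation markers to 117 to 203 and 129 to 301; the part of each in the members' values was not tested. With a regional score as covariate, and without null 3 and null 5, the number of members called was again 0. With that score the log2 change was 0.33 for Axin2, 0.22 for Sox9, 0.15 for Cd44, 1.11 for Ephb2 and 0.56 for Smoc2. The sizes of the changes thus moved with this setting. The number of genes called, 303, moved by more than 1.5 times with single libraries. Leaving out WT 1 gave 140 and WT 2 gave 173, while leaving out null 3 gave 185 and null 5 gave 199.

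Likeness among the members across the 9 enterocyte libraries varied from pair to pair. After centring on the genotype means, Pearson r over the 10 pairs of the 5 tested members ran from −0.356 to 0.641 with a median of 0.160, a description over libraries that share depth and preparation. Sox9 and Cd44 had the highest r. The 5 other genes whose profile was most like the members' mean were Myl12b (r = 0.979), Gnaq (0.970), Kmt2d (0.963), Itgax (0.946) and Rnu11 (0.945), chosen among 9432 genes over 9 libraries.

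**Figure D2:**
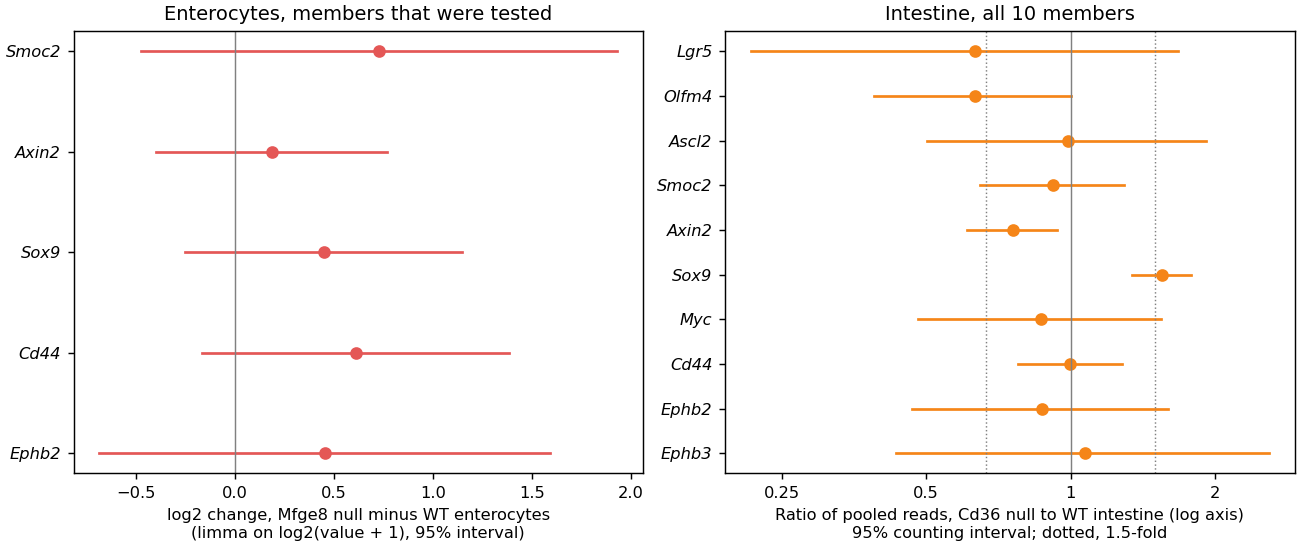
Left, log2 change of the 5 tested members in Mfge8 null against WT enterocytes with 95% intervals from limma; right, ratio of pooled reads of all 10 members in Cd36 null against WT intestine on a log axis with 95% counting intervals, and dotted lines at 1.5-fold in either direction. All 5 enterocyte intervals include 0; in intestine the interval of Sox9 lies above 1 and that of Axin2 below 1.

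In every Cd36 null intestine library Sox9 was higher and Axin2 lower than in every WT library, while the other 8 members overlapped between genotypes. Of the 10 members, 8 reached 5 normalised reads in 3 or more libraries (Lgr5 and Ephb3 did not). A member was called at 1.5-fold or more on the mean value + 1. That held for 2 of 8, Sox9 upward and Olfm4 downward, against a background of 8.99% of 9314 genes (347 higher and 490 lower). Ranges over libraries did not overlap for 2 of 8, Sox9 and Axin2, against 16.5% of genes. The median log2 change of the 8 was −0.17, against −0.00 over all genes tested, and Sox9 alone of the 8 was above 0.

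Sox9 stood at 84.5, 84.7, 95.6 and 99.5 normalised reads in WT 1 to 4 and at 147, 137 and 138 in Cd36 null 1 to 3. Every null library lay above every WT library. From 359 and 440 reads the ratio of null to WT was 1.55, with a 95% counting interval of 1.34 to 1.78, which covers counting error only. The log2 change was 0.62, and it stayed between 0.59 and 0.67 over 18 alternative settings. With limma, edgeR or DESeq2 over the libraries the adjusted p ran from 7.91e-07 to 0.000416, values that treat the libraries as replicates and so compare these preparations. In enterocytes the corresponding change of Sox9 with loss of Mfge8 was 0.45 and did not pass the test. The difference between these changes was not tested.

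Summed markers of tuft, enteroendocrine and goblet cells were higher in Cd36 null intestine, as Sox9 was, while the Paneth cell sum was lower. Of 7 tuft cell markers, 6 passed the filter and all 6 were past 1.5-fold higher in Cd36 null intestine. The background of this count and of the Paneth count below was 8.99% of all genes, in either direction. Trpm5, a cation channel of tuft cell signalling, had a ratio of 3.49 (95% counting interval 2.28 to 5.50), and Dclk1, a kinase that marks tuft cells, had 1.84 (1.495 to 2.26). The 7 markers summed to 140 to 173 RPM in WT and 346 to 355 in null libraries. Enteroendocrine markers summed to 360 to 401 in WT and 482 to 521 in null libraries, and goblet markers to 8590 to 8897 and 9965 to 10176, both without overlap. Paneth cell markers summed to 1212 to 1329 in WT and 1087 to 1158 in null libraries, with 3 of 8 past 1.5-fold lower (Defa22, Mmp7 and Pla2g2a, at ratios of 0.657, 0.486 and 0.456). Mmp7 averaged 6.64 normalised reads in WT and 3.20 in null libraries, so it passed the filter mainly through WT. Ang4 of the same list was higher without overlap, at 1.42 (1.249 to 1.61). The ileal marker Fabp6, a bile acid binding protein, had a ratio of 0.248 (0.213 to 0.287). Their part in the Sox9 result was not tested.

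**Figure D3:**
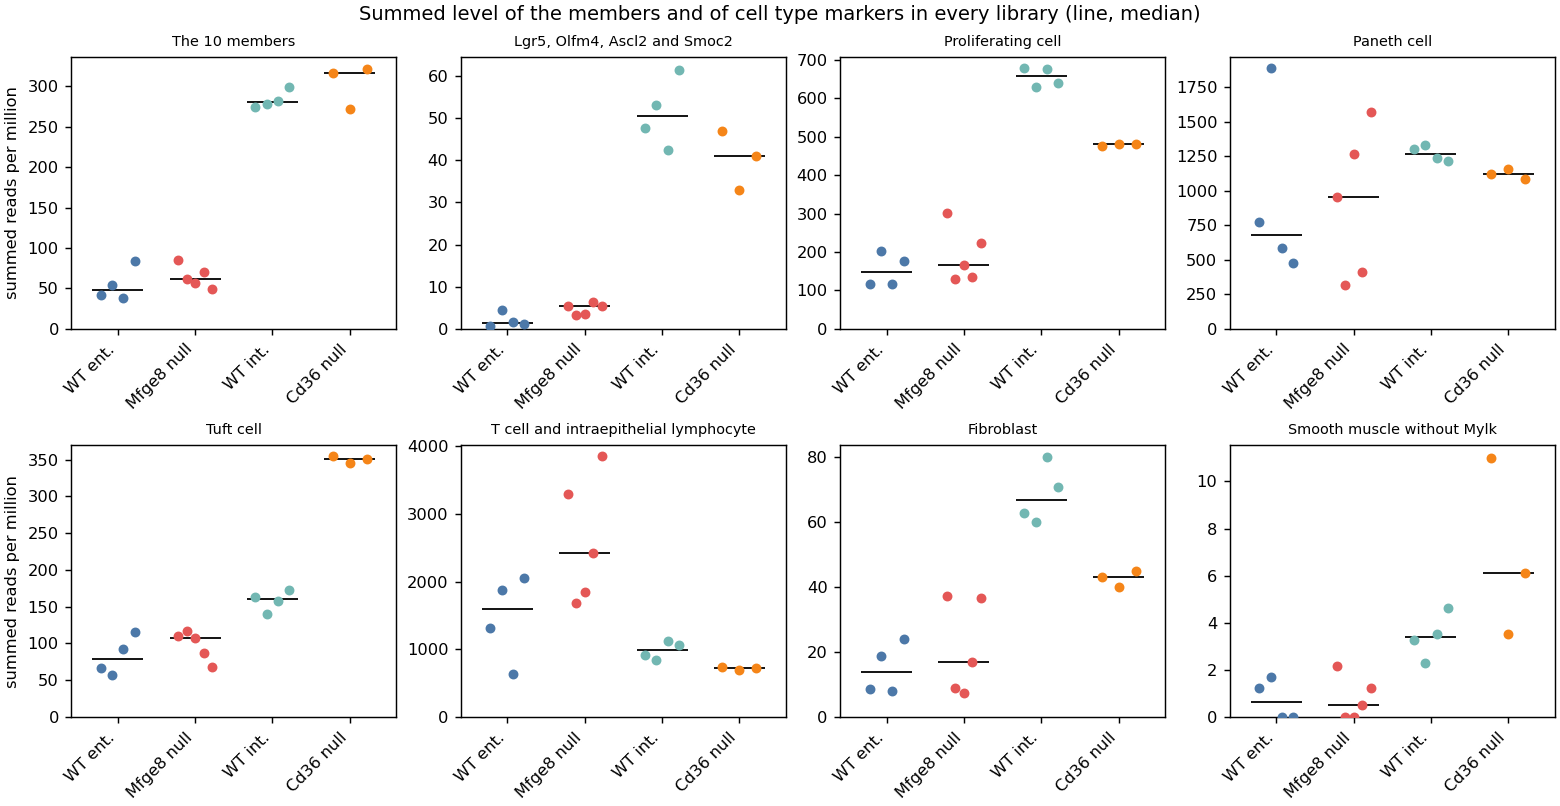
Summed RPM in each library for the 10 members, for Lgr5, Olfm4, Ascl2 and Smoc2 together, and for markers of proliferating, Paneth, tuft, T and intraepithelial, fibroblast and smooth muscle cells. The smooth muscle sum leaves out Mylk. Points are libraries and lines are medians. Tuft cell markers are at 346 to 355 in the 3 Cd36 null libraries and 140 to 173 in the WT intestine libraries, while proliferation markers are lower in the null libraries.

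Axin2 stood at 55.7, 64.0, 58.2 and 57.5 normalised reads in WT intestine and 41.6, 37.3 and 53.7 in Cd36 null intestine. The null libraries were all below the lowest WT library, null 3 by a small margin. The ratio was 0.757 (95% counting interval 0.609 to 0.938) from 232 and 139 reads, short of the 1.5-fold limit, and limma over the libraries gave an adjusted p of 0.0662. Olfm4 stood at 12.5, 10.3, 12.5 and 23.6 in WT and 5.43, 11.7 and 11.1 in null libraries. WT 4 was high, null 1 was low and the others overlapped. Its ratio was 0.631 (0.390 to 1.002) from 58 and 29 reads. Its log2 change of −0.59 was called, and was −0.29 without WT 4 and −0.34 without null 1, neither of which is past 1.5-fold.

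Of the other stem cell markers, Lgr5 had 3, 6, 3 and 2 reads in WT 1 to 4 and 2, 4 and 1 in null 1 to 3, a ratio of 0.631 (95% counting interval 0.216 to 1.67). Ascl2 had 4, 6, 6 and 7 reads in WT and 7, 1 and 10 in null libraries. Null 2 was the lowest and null 3 the highest of the 7 libraries for Ascl2, and the ratio was 0.988 (0.503 to 1.91). Smoc2 stood at 23.1, 24.8, 15.6 and 21.5 normalised reads in WT and 29.0, 12.8 and 15.7 in null libraries, a ratio of 0.917 (0.648 to 1.29). Here too null libraries held the extremes. The 4 stem cell markers summed to 42.3 to 61.4 RPM in WT and 32.8 to 47.0 in null intestine, with overlap.

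Cd44 was close to equal, at 38.4, 39.2, 37.4 and 34.9 normalised reads in WT and 38.9, 33.01 and 39.8 in null intestine. Its ratio was 0.998, and the 95% counting interval of 0.777 to 1.28 leaves out changes of 1.5-fold. Myc stood at 10.6, 7.23, 8.31 and 6.16 in WT and 8.14, 3.19 and 9.25 in null libraries, a ratio of 0.868 (0.481 to 1.54). Null 2 had the lowest Myc value, and the groups otherwise overlapped. Ephb2 had a ratio of 0.871 (0.467 to 1.59) and Ephb3 of 1.07 (0.433 to 2.58), both with overlapping libraries and intervals wide enough to hold a 1.5-fold change either way.

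Proliferation markers, which mark dividing cells of the crypt, stem cells among them, summed to 629 to 679 RPM in WT and 475 to 481 in Cd36 null intestine. Of 16 that passed the filter, 6 were past 1.5-fold lower, among them Mki67 with a ratio of 0.645 (95% counting interval 0.538 to 0.772), and Ccnb1 was past it higher at 1.74 (0.871 to 3.54). The background of this count and of the T cell count below was 8.99% of all genes, in either direction. Ccnb1 averaged 4.06 normalised reads in WT and 6.87 in null libraries, and Mcm2, among the 6, averaged 7.84 and 4.83. For each, the lower of these means was under the filter value of 5, which favours a call toward the higher group. Fibroblast markers summed to 60.1 to 80.0 in WT and 39.9 to 44.98 in null libraries. T cell and intraepithelial lymphocyte markers summed to 842 to 1118 in WT and 699 to 735 in null libraries, with 4 of 10 past 1.5-fold lower (Ptprc, Cd7, Gzmb and Itgae). These 3 sums moved in the direction of Axin2 and Olfm4, and their part in those values was not tested.

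The rest of the Wnt pathway had no call by limma in enterocytes. Over 10 lists of Wnt, stem cell, Notch, BMP, Eph and growth signalling genes, limma called 0 of 87 tested genes in Mfge8 null enterocytes. The unadjusted p was under 0.05 for 15 of them, against 15.9% of all genes tested. On the recovered reads edgeR called 1, Mxi1, a partner of Max that opposes Myc, at a log2 change of 0.58 (adjusted p = 0.0481). DESeq2 called 3: Mxi1, Lgals3, a galectin of the gut lining, at 0.70 (adjusted p = 0.0204) and Sord at −0.68 (adjusted p = 0.0410). Limma's adjusted p for these was 0.0545, 0.0691 and 0.0805, just outside the threshold. In Cd36 null intestine 13 of 94 were past 1.5-fold, against 8.99% of all genes. That share is also the background of the intestine counts of the single lists below. Wnt ligands were sparse in both tables: 1 of 19 genes of the ligand list passed the filter in each, Wls, the carrier that brings Wnt proteins to the cell surface. Wls averaged 10.5 normalised reads in WT and 7.82 in Mfge8 null enterocytes (limma adjusted p = 0.773). In intestine Wls was at 30.6 in WT and 19.4 in Cd36 null, a ratio of 0.637 (95% counting interval 0.460 to 0.873), without overlap. Wnt3, the ligand made by Paneth cells, and Wnt6 averaged under 5 normalised reads in every group and were not tested.

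Receptors were better covered. In enterocytes 6 of 17 were tested and 0 called, and in intestine 1 of 7 was past 1.5-fold, downward (Fzd7, a Wnt receptor, at a ratio of 0.559, 95% counting interval 0.365 to 0.843). Lgr4, an R-spondin receptor related to Lgr5, averaged 415 normalised reads in WT and 483 in Mfge8 null enterocytes (limma log2 change 0.21, SE 0.17, adjusted p = 0.576), and had a ratio of 0.989 (95% counting interval 0.891 to 1.10) in Cd36 null intestine. Lgr4 was thus far above Lgr5 in both sample types. Fzd5, a Wnt receptor of the crypt, had a ratio of 0.858 (0.765 to 0.962) in intestine with overlapping libraries, and Ryk, a Wnt co-receptor, had 0.933 (0.811 to 1.07).

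Of the inhibitors and feedback genes, 4 of 16 were tested in each table. None was called in enterocytes (0 of 4) and 1 was past 1.5-fold lower in intestine. This was Znrf3, a ubiquitin ligase that removes Frizzled receptors, at a ratio of 0.368 (95% counting interval 0.134 to 0.881) from low levels. Znrf3 averaged 6.04 normalised reads in WT and 2.19 in Cd36 null libraries. It thus passed the filter mainly through WT libraries, which favours a call downward. Rnf43, its homologue of like function and, as Axin2, a feedback gene, was at 20.9 normalised reads in WT and 20.2 in Cd36 null intestine, a ratio of 0.974 (95% counting interval 0.692 to 1.37). Tle3, a co-repressor that binds TCF factors, averaged 217 in WT and 288 in Mfge8 null enterocytes (limma log2 change 0.47, SE 0.19, adjusted p = 0.246). Kremen1, a receptor for DKK inhibitors, had a ratio of 1.26 (0.784 to 2.03) in intestine.

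The destruction complex and nuclear partners had 15 of 20 genes tested in each table, with 0 called in enterocytes and 1 past 1.5-fold higher in intestine, Bcl9, a beta-catenin cofactor, at a ratio of 1.62 (95% counting interval 1.08 to 2.44) with overlapping libraries. Ctnnb1, which codes for beta-catenin, averaged 2456 normalised reads in WT and 3018 in Mfge8 null enterocytes (limma log2 change 0.30, SE 0.16, adjusted p = 0.391). In intestine Ctnnb1 had a ratio of 1.09 (95% counting interval 1.05 to 1.13). The kinase genes Csnk1a1 and Gsk3b, which mark beta-catenin for destruction, had intestine ratios of 1.10 (1.03 to 1.18) and 1.01 (0.941 to 1.09). These were small beside the ratio of 1.55 for Sox9.

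Other Wnt targets of the crypt had no call in either table. Of 11, 7 were tested in enterocytes and 8 in intestine, and the intestine median was 0.01 on the log2 scale. Ccnd2, a cyclin of the G1 phase, was at 374 normalised reads in both WT and Cd36 null intestine (ratio 0.996, 95% counting interval 0.921 to 1.08). Jun, a subunit of the AP-1 factor, had a ratio of 1.22 (1.07 to 1.39), and Cdx1, an intestinal homeobox factor, had 1.05 (0.889 to 1.24).

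Of 16 further genes reported for crypt stem cells and tested in intestine, 2 were past 1.5-fold higher and 3 lower, with a median log2 change of −0.12. Over all genes 8.99% were past it, 347 higher and 490 lower of 9314. Cd24a, a surface glycoprotein of crypt cells, was at 55.7 normalised reads in WT and 90.9 in Cd36 null intestine, a ratio of 1.62 (95% counting interval 1.35 to 1.94). Pdgfa, a growth factor, had a ratio of 1.54 (1.19 to 1.99). Clca3b, a member of the calcium-activated chloride channel regulator family, was at 147 in WT and 88.6 in null libraries, a ratio of 0.604 (0.522 to 0.698), and Rassf5, a Ras-binding protein, had 0.649 (0.459 to 0.9102). The fifth was Cdca7 at 0.467 (0.251 to 0.830). All 5 separated the genotypes without overlap. They had been picked by their fold between these same libraries, so this cannot be set against the 16.5% of all genes that did so. Of the other genes of this list tested in intestine, Sord alone separated the genotypes, at a ratio of 1.41 (1.30 to 1.53). In enterocytes 14 of these genes were tested and 0 called. Sord, which codes for sorbitol dehydrogenase, averaged 1246 normalised reads in WT and 777 in Mfge8 null enterocytes, a limma log2 change of −0.69 (SE 0.20, adjusted p = 0.0805).

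The Notch pathway, which sets the choice between absorptive and secretory fate, had 1 of 11 genes past 1.5-fold in intestine. That count is near the share of 8.99% over all genes. Hes6, a basic helix-loop-helix factor of that pathway, was at 18.2 normalised reads in WT and 38.0 in Cd36 null intestine, a ratio of 2.09 (95% counting interval 1.54 to 2.84), without overlap. The Notch target Hes1 had a ratio of 1.13 (0.983 to 1.31) and Atoh1, the factor of secretory fate, had 1.10 (0.857 to 1.40). In enterocytes 10 Notch genes were tested and 0 called. BMP signalling, which opposes stem cell renewal, had 11 genes tested in each table and 0 called in each. Id3 and Id1, BMP target genes, had intestine ratios of 0.899 (0.821 to 0.983) and 0.916 (0.839 to 1.001), and Smad4, the common signal transducer, had 1.03 (0.942 to 1.12).

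The Eph family, to which Ephb2 and Ephb3 belong, had 4 other genes tested in enterocytes with 0 called, and 7 in intestine with 2 past 1.5-fold lower, Epha2 and Ephb4. Epha2 was at 30.9 normalised reads in WT and 19.98 in Cd36 null intestine, a ratio of 0.642 (95% counting interval 0.465 to 0.878), and Ephb4, a further EphB receptor, had 0.403 (0.209 to 0.734). Ephb4 averaged 11.9 normalised reads in WT and 4.72 in null libraries, the latter under the filter value of 5, which favours a call downward. Efnb1, a ligand of the EphB receptors, was at 210 in WT and 215 in null libraries (ratio 1.02, 0.921 to 1.13). Among Myc partners and ErbB and Yap signalling genes, 15 were tested in enterocytes with 0 called, and 1 of 14 was past 1.5-fold higher in intestine, Mycl at 1.89 (95% counting interval 0.919 to 4.03) from few reads. Max, the partner of Myc, had an intestine ratio of 1.12 (1.03 to 1.22). Mxd1, which competes with Myc for Max and is known from differentiated epithelium, averaged 2375 normalised reads in WT and 3025 in Mfge8 null enterocytes (limma log2 change 0.35, SE 0.18, adjusted p = 0.366), against at most 3.92 for Myc in any enterocyte library.

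**Figure D4:**
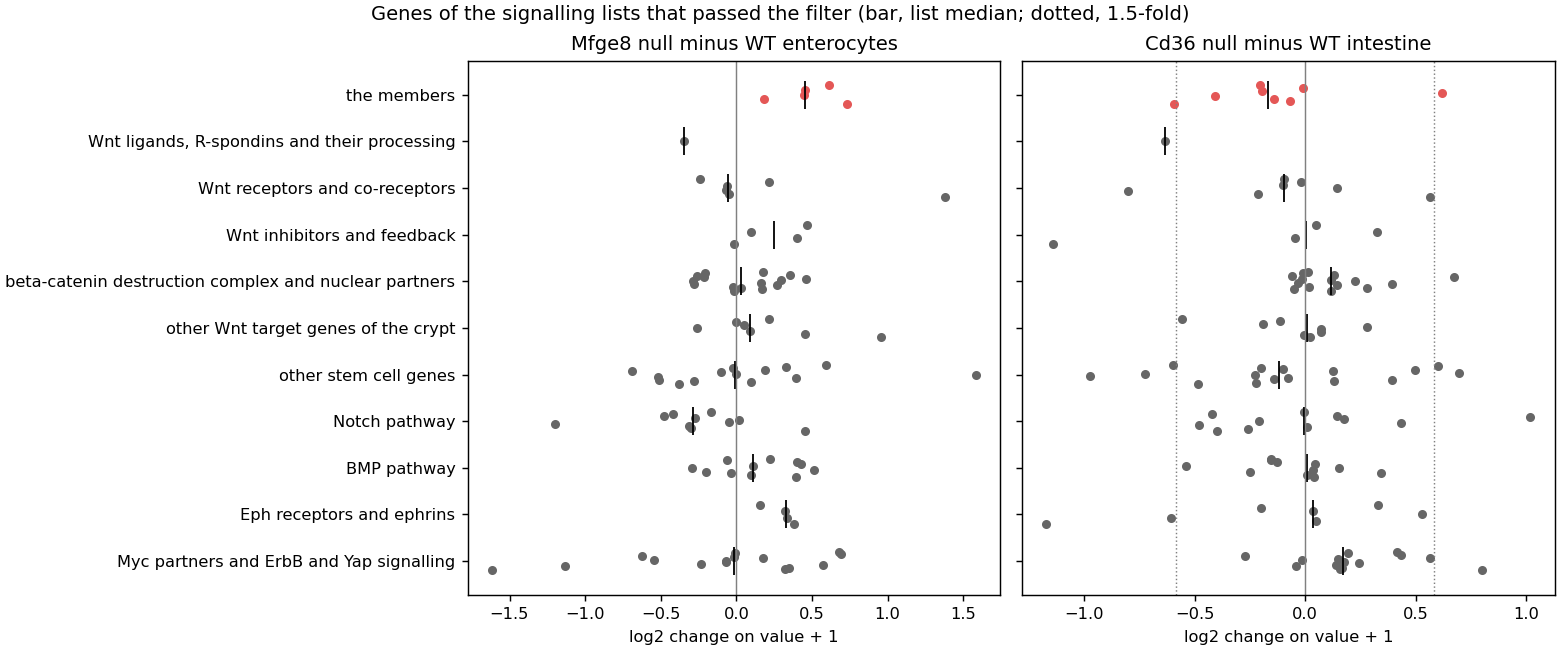
Log2 change of each gene that passed the filter, by list, for Mfge8 null minus WT enterocytes (left) and Cd36 null minus WT intestine (right); bars are list medians and dotted lines mark 1.5-fold. In intestine Sox9 alone of the members shown lies above 0, while most lists scatter on both sides of 0. No gene of these lists passed limma's adjusted threshold in enterocytes.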

How the data were processed

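RNA was measured in 16 libraries, prepared per the labels' protocols with the QuantSeq FWD 3' tag kit and a unique molecular identifier (UMI) module. The build was mm10 and the tools named are HTSeq 0.91, DESeq2 2.11.40, HISAT2 2.1.0 and Trimmomatic 0.38.1, per the submitters' processing notes. Order, settings, use of UMIs and strand setting of these tools are not given in the sources used here. Since reads may not be independent molecules if UMIs were not collapsed, intervals and floors reflect counting error alone.

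The authors deposited a normalised signal in 2 tables, normalised separately, so tests stayed within a table. Within each library 100% of values were whole multiples of 1 step, to within 1e-06, and whole reads were recovered as signal divided by that step. For WT 4 and null 3 of the enterocyte table the step lies close to 1 and is less certain.

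Enterocytes (4 WT, 5 null) were compared by limma 3.58.1 (trend fitted, log2 of value + 1, R 4.3.3) over genes that reached 5 in 4 or more libraries, with Benjamini-Hochberg adjustment, a threshold of 0.05 and 2-sided tests. Log2 changes on this scale understate changes of low genes. Intestine libraries (4 WT, 3 null) were compared between pooled genotypes: genes that reached 5 in 3 or more libraries were called at 1.5-fold on the mean value + 1, and ratios of pooled reads carry exact conditional binomial intervals. RPM values divide by each library's listed reads. Alternatives were other pseudocounts, filters, scaling, folds, edgeR 4.0.16, DESeq2 1.42.0, left-out libraries, a replicate block and a regional score (proximal minus ileal markers). The limma, edgeR and fold scripts were tested on simulated data.

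The members and gene lists were chosen with earlier results of these data known. Named genes were the members, the targeted genes, from each list those called (at most the 4 largest per direction in enterocytes, or 3 past 1.5-fold with a mean of at least 20 in intestine), up to 3 further genes by level, and the 5 genes most like the members' mean profile. Fzd7, Znrf3, Bcl9, Cdca7, Ephb4, Mycl, Mxi1 and the named cell type markers were chosen after their values were seen. In the lists, Ccn1 and Ccn2 had no row under those symbols.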

Additional observations from a re-analysis of the deposited data

How the results depend on the processing

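In enterocytes 0 members were called under all 21 alternatives, and the 5 tested members kept a log2 change above 0 in every fit that held them. Smoc2 failed the filter without null 1, without null 4 and without null 5. It was thus fitted mainly where null libraries were high, so its constant sign is partly set by the filter. The number of genes called, 303, ranged from 140 to 388 when 1 library was left out, and was 118 with the regional score as covariate, 116 without null 3 and null 5 and 147 with limma without a trend. In intestine the number of members called, 2, was 1 with a pseudocount of 5, with a mean of at least 20, with edgeR, with DESeq2 and with limma over the libraries, 0 at a fold of 2, 3 at the lower fold limit tried (with Axin2 added), and 1 to 2 when 1 library was left out. It was 1 without WT 4 and 1 without Cd36 null 1, where Olfm4 was no longer called. Sox9 was called under every alternative other than the fold of 2. The number of genes called, 837, was 402 with a pseudocount of 5, 2331 with no filter, 219 with a mean of at least 20, 318 with DESeq2, 2358 at the lower fold limit tried and 204 at a fold of 2. The causes of these shifts were not tested, other than that a filter or fold changes what can be called. Log2 changes of Ascl2, Cd44, Myc and Smoc2 in intestine, none of them called, took both signs over the alternatives. Same-numbered libraries correlated at −0.166 to 0.306 in enterocytes and 0.025 to 0.056 in intestine, so the numbers were not taken to pair samples; with a replicate block 229 genes and 0 members were called in enterocytes, and 1 member, Sox9, in intestine. Depth limits what can be seen for Lgr5, Olfm4, Ascl2, Myc and Ephb3 in enterocytes and for Lgr5 and Ephb3 in intestine.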
